A study of Arabidopsis thaliana with 12 samples.

Results

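CHR23 (AT5G19310), BSH (AT3G17590), SWI3A (AT2G47620) and CHB3 (AT4G34430) encode parts of the SWI/SNF chromatin remodelling complexes of Arabidopsis. They are the genes set for this report, and the platform annotation assigns a spot to each of them. They are not all the SWI/SNF genes with a named spot, as 4 further ones, CHC1 among them, are given below. The set makes up 4 of the 8734 named genes and of the 20072 genes and unnamed spots that were tested in all. The arrays compared leaves of ecotype Col (Columbia) 5 min after mechanical wounding with a hemostat, hybridised together on each array with leaves that were not wounded. Both groups were rosette leaves of soil-grown wild-type plants harvested as pools, so each value is an average over many plants and over damaged and intact leaf cells. The 12 two-colour arrays hold 3 biological replicates, each as 2 technical replicates with a dye swap. The wounded leaves were labelled with Cy5 on 6 arrays, called Cy5-wounded here, and with Cy3 on the other 6, called Cy3-wounded. None of the 4 genes passed the test for a difference between wounded and not wounded leaves. CHR23 had the largest ratio of the set (1.23-fold) and missed the threshold.

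SWI/SNF complexes use the energy of ATP to slide or evict nucleosomes, and so change how open a stretch of DNA is to transcription factors. Each complex is built around a Snf2-type ATPase, held together by a SNF5-type subunit, SWI3-type subunits and SWP73-type subunits. CHR23 is an ATPase of this class, and plants that make too much of it grow less. BSH (BUSHY GROWTH) is the SNF5-type subunit. SWI3A and CHB3 (also named ATSWI3D) are members of the SWI3 family, whose proteins bind one another and the rest of the core. Loss of SWI3A stops embryo development, and loss of CHB3 gives dwarf plants with abnormal flowers. In leaves, remodelling of this kind is known to take part in growth control and in hormone and stress responses. The related ATPase genes SYD, BRM and CHR12 are not analysed here, since none of them had a named spot. The annotation gave no gene for 13200 of the 22575 spots, so unnamed spots may read them. The paper places SYD among its rapid wound response genes, with a rapid and transient rise by RT-qPCR.

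Each of the 4 genes was read by 1 spot. The gene table lists 2 transcripts for CHR23, 3 for BSH, 2 for SWI3A and 4 for CHB3, and which of them a spot reads is not given in the sources used here. A processed signal is the brightness of a spot in 1 dye after background subtraction and dye scaling, in arbitrary units, and signals of different spots are not compared here. A ratio is the signal of wounded over not wounded leaves on the same array, on the log2 scale, so that 0 is no difference and 1 is a doubling. The ratio of a biological replicate is the mean of its 4 arrays. It was tested against 0 over the 3 replicates with limma, and a gene is called at a Benjamini-Hochberg adjusted p under 0.05. In bulk leaf RNA, fewer cells that express a gene and less RNA per cell cannot be told apart.

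Over all tested genes and spots, 7.25% were called higher and 7.24% were called lower in wounded leaves. Of the 4 SWI/SNF genes, 0 were higher and 0 were lower. At an unadjusted p under 0.05 from limma, 1 of the 4 was higher (CHR23) and 0 were lower, where 32.9% of all genes and spots passed. The size of the ratio lay at the 80.0th percentile of all genes and spots for CHR23, at the 53.4th for BSH, at the 52.9th for CHB3 and at the 49.5th for SWI3A. The median absolute log2 ratio of all tested genes and spots was 0.13. BSH, SWI3A and CHB3 thus sat in the middle of what all genes showed, and CHR23 in the upper part.

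CHR23, the ATPase gene, had signals of 65.5 to 207 (median 117) in wounded leaves, against 70.1 to 133 (median 93.9) in not wounded leaves. The range in not wounded leaves thus lay wholly within that in wounded leaves. The log2 ratio was 0.47 in replicate 1, 0.21 in replicate 2 and 0.20 in replicate 3, with a mean of 0.30 ± 0.15 (SD, n = 3 biological replicates, limma adjusted p = 0.074). The 95% confidence interval of the fold change ran from 1.06 to 1.42. It does not cover 1, but the adjustment over all genes and spots placed CHR23 above the threshold.

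The ratio of CHR23 differed with the dye in every replicate. On Cy5-wounded arrays it was 0.98 and 1.02 in replicate 1, 0.52 and 0.53 in replicate 2, and 0.79 and 0.57 in replicate 3. On Cy3-wounded arrays it was -0.20 and 0.08 in replicate 1, -0.02 and -0.19 in replicate 2, and -0.04 and -0.50 in replicate 3. All 6 arrays of the first kind were therefore above 0, and 1 of the 6 arrays of the second kind was. The value of -0.50 came from the array whose channel label differs from its title. CHR23 passed the test on Cy5-wounded arrays alone (log2 ratio 0.73, limma adjusted p = 0.021), where 29.8% of all genes and spots passed, and had a log2 ratio of -0.14 on Cy3-wounded arrays alone (adjusted p = 0.34). Over its alternatives the adjusted p of CHR23 ran from 0.00079 to 1.00. Its spot was also dim. An upper limit of the dim range was set for each array and dye as the signal below which 95% of the spots with a deposited ratio of exactly 0 lay. CHR23 was under this limit on 1 of 12 arrays in the wounded channel and on 3 of 12 in the not wounded channel. Against a single limit over both dyes of an array, CHR23 was under it on 3 of 12 arrays in the wounded channel and on 9 of 12 in the not wounded channel. Its deposited ratio was other than 0 on all 12 arrays.

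**Figure D1:**
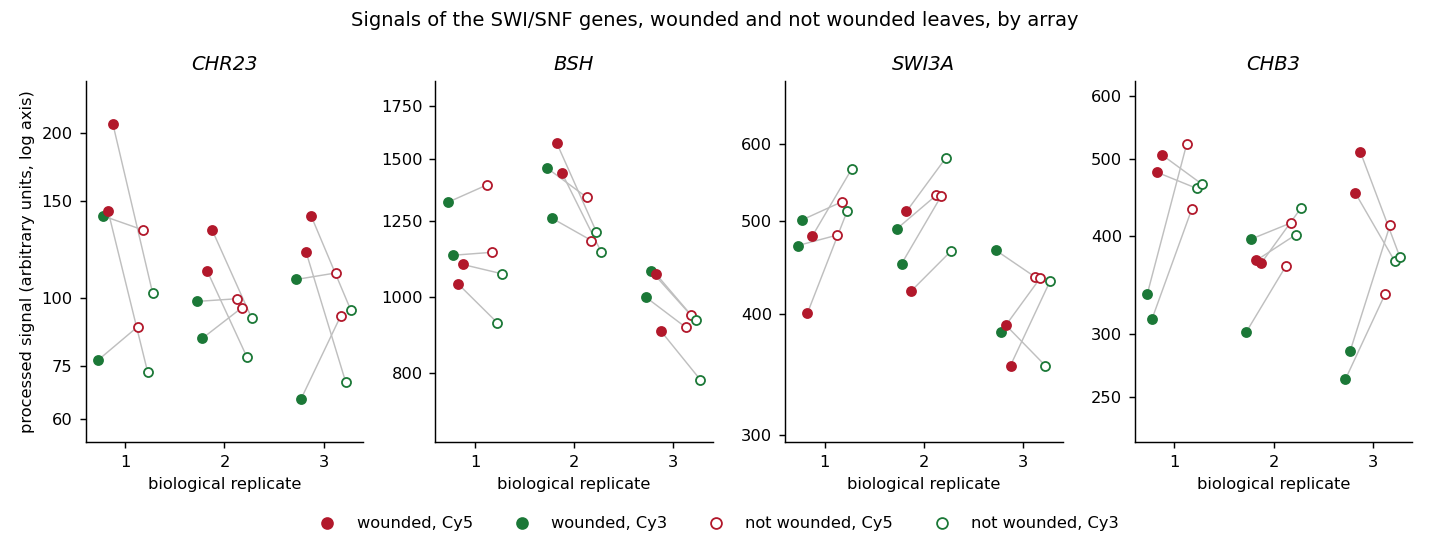
Processed signal (arbitrary units, log axis, own range in each panel) of CHR23, BSH, SWI3A and CHB3 on the 12 arrays, by biological replicate. Filled points are wounded leaves and open points are not wounded leaves, coloured by dye, and a line joins the channels of 1 array. In CHR23 the lines slope one way on Cy5-wounded arrays and mostly the other way on Cy3-wounded arrays, while in BSH 10 of the 12 lines run down from wounded to not wounded.

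BSH, the SNF5-type subunit gene, gave signals of 905 to 1570 (median 1115) in wounded leaves, against 784 to 1390 (median 1105) in not wounded leaves, all far above the dim limit. The log2 ratio was 0.03 in replicate 1, 0.23 in replicate 2 and 0.18 in replicate 3. Wounded leaves were thus slightly brighter in all 3 replicates, with hardly any difference in replicate 1. The mean was 0.15 ± 0.11 (SD, n = 3, limma adjusted p = 0.21), or a ratio of wounded over not wounded of 1.11 with a 95% confidence interval of 0.98 to 1.25. BSH was above 0 on 10 of 12 arrays, and the exceptions were the Cy3-wounded arrays of replicate 1 (-0.07 and -0.01). Both kinds of array gave BSH a mean above 0, of 0.22 (Cy5-wounded) and 0.07 (Cy3-wounded).

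SWI3A gave signals of 354 to 511 (median 459) in wounded leaves, against 354 to 581 (median 497) in not wounded leaves. Its log2 ratio was -0.17 in replicate 1, -0.17 in replicate 2 and -0.06 in replicate 3, so that wounded leaves were slightly dimmer in each. The mean was -0.13 ± 0.06 (SD, n = 3, limma adjusted p = 0.20), or a ratio of wounded over not wounded of 0.91 with a 95% confidence interval of 0.82 to 1.02. SWI3A was below 0 on all but 2 of the 12 arrays. Both of these belonged to technical replicate 1 of biological replicate 3 (0.14 and 0.09). Technical replicate 2 of biological replicate 3 gave -0.29 and -0.19, the latter on the Cy3-wounded array whose channel label differs from its title. For SWI3A the arrays of replicate 3 thus divided by technical replicate and not by dye.

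CHB3, the other SWI3-type gene, gave signals of 263 to 511 (median 371) in wounded leaves, against 337 to 523 (median 414) in not wounded leaves. Its log2 ratio was -0.23 in replicate 1, -0.17 in replicate 2 and -0.04 in replicate 3. The mean was -0.15 ± 0.10 (SD, n = 3, limma adjusted p = 0.20), or a ratio of wounded over not wounded of 0.90 with a 95% confidence interval of 0.80 to 1.02. Like SWI3A, CHB3 was slightly dimmer in wounded leaves of all 3 replicates, least so in replicate 3. The ratio of CHB3 turned with the dye, since its mean was 0.10 on Cy5-wounded and -0.39 on Cy3-wounded arrays. In replicate 2 both orientations gave -0.17, but in replicate 1 they gave 0.09 and -0.55, and in replicate 3 0.37 and -0.44.

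**Figure D2:**
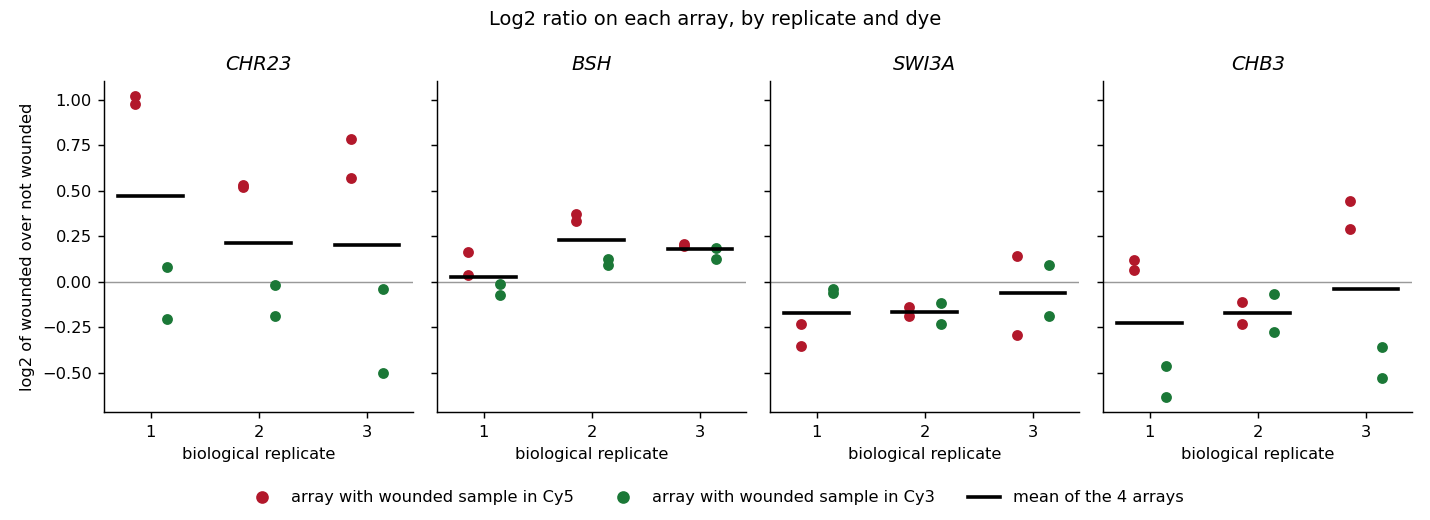
Log2 ratio of wounded over not wounded on each of the 12 arrays for CHR23, BSH, SWI3A and CHB3, by biological replicate, with red points for Cy5-wounded arrays, green points for Cy3-wounded arrays, and a bar for the mean of the 4 arrays. The replicate means of CHR23 (0.20 to 0.47) and BSH (0.03 to 0.23) lie above 0 and those of SWI3A (-0.17 to -0.06) and CHB3 (-0.23 to -0.04) below it, while the dyes lie far apart in CHR23 and in replicates 1 and 3 of CHB3.

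The dye effect, the part of the Cy5 over Cy3 ratio that does not turn with the sample, was estimated by fitting the 12 arrays singly with limma. Across all tested genes and spots, arrays of 1 replicate with opposite dyes correlated in their wounded over not wounded ratios at r = -0.73 (median of 12 pairs), and those with the same dye at r = 0.95 (median of 6 pairs). The dye effect was called for 45.2% of all genes and spots, and for 2 of the 4 SWI/SNF genes. On the log2 scale it was 0.44 for CHR23 (limma adjusted p = 0.0034) and 0.24 for CHB3 (adjusted p = 0.031), against 0.07 for BSH (adjusted p = 0.36) and -0.04 for SWI3A (adjusted p = 0.68). In CHR23 and CHB3 the dye effect was larger than the difference between wounded and not wounded leaves, and in BSH and SWI3A smaller. Averaging over both orientations removes a dye effect that is equal in both. In the same fit over 12 arrays, which counts technical repeats as partly separate evidence, the log2 ratios stayed the same and all 4 genes passed for wounding (adjusted p of 0.00079 to 0.021 from limma), as did 45.1% of all genes and spots. With technical replicate 1 alone, where 10.1% of all genes and spots passed, CHR23 was higher (log2 ratio 0.34, limma adjusted p = 0.0496) and BSH, SWI3A and CHB3 did not pass.

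**Figure D3:**
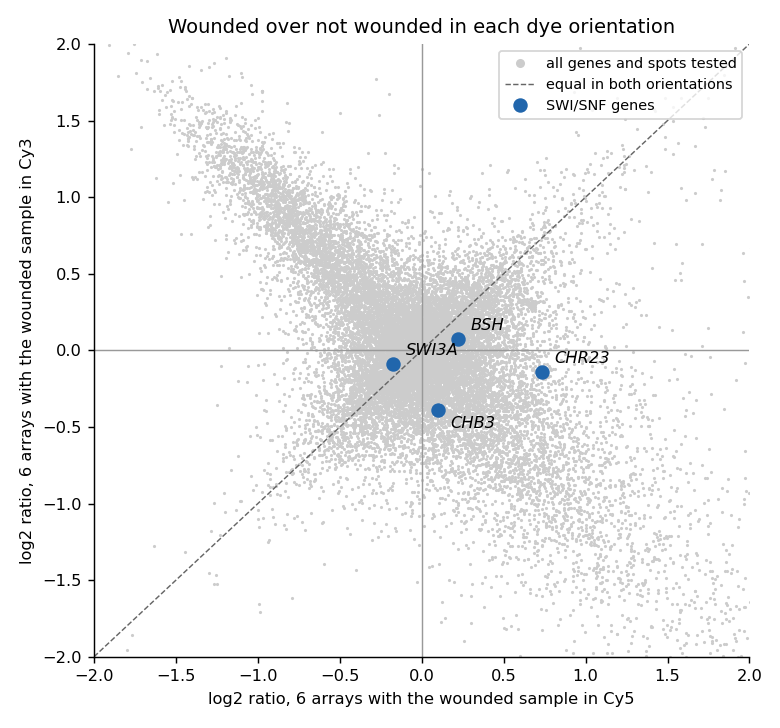
Mean log2 ratio of wounded over not wounded on the 6 Cy3-wounded arrays (vertical) against that on the 6 Cy5-wounded arrays (horizontal), for all tested genes and spots (grey) and the 4 SWI/SNF genes (blue). BSH and SWI3A lie close to the dashed line of equal values and CHR23 (0.73 and -0.14) and CHB3 (0.10 and -0.39) below it, with 611 genes and spots outside the axes at ±2.

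Set against each other within replicates, the subunits lay in a higher and a lower pair. CHR23 exceeded SWI3A by 0.43 ± 0.19 and CHB3 by 0.44 ± 0.23 on the log2 scale (SD, n = 3), and BSH exceeded SWI3A by 0.28 ± 0.11 and CHB3 by 0.29 ± 0.10, in 3 of 3 replicates each. The difference between CHR23 and BSH was 0.15 ± 0.25, and that between SWI3A and CHB3 was 0.01 ± 0.04, with both signs among the replicates. Ordered by log2 ratio, CHR23 and BSH, and likewise SWI3A and CHB3, were therefore not separated beyond their spread. The order also depended on the dye. On Cy5-wounded arrays alone CHR23 (0.73) and BSH (0.22) lay above CHB3 (0.10) and SWI3A (-0.18). On Cy3-wounded arrays alone BSH (0.07) was highest and CHB3 (-0.39) lowest, but CHR23 (-0.14) lay below SWI3A (-0.09). These differences are a description, as with 3 replicates an exact sign-flip test cannot go below p = 0.25.

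Of 17 further genes of SWI/SNF complexes, listed by locus, 4 had a named spot and all 4 were tested. In wounded leaves 0 of them were higher and 1 was lower, where 7.25% of all genes and spots were higher and 7.24% lower. With 4 genes this count says little about the list. The gene that fell was CHC1 (AT5G14170, also BAF60), which encodes an SWP73-type subunit. It had a mean signal of 1988 in wounded leaves, against 2466 in not wounded leaves. Its log2 ratio was -0.21, -0.40 and -0.34 in the 3 replicates, with a mean of -0.32 ± 0.10 (SD, n = 3, limma adjusted p = 0.044). CHC1 was lower in both dye orientations (-0.35 on Cy5-wounded and -0.29 on Cy3-wounded arrays), and its dye effect was -0.03. It was not called once replicate 2 was left out (limma adjusted p = 0.24) or replicate 3 (0.18), or the array of replicate 3 whose channel label differs from its title (0.11). CHC1 was called under 9 of 19 alternatives, with adjusted p of 3.1e-06 to 1.00. It was also not called with no filter on dim spots (0.062), on Cy5-wounded (0.072) or Cy3-wounded arrays alone (0.089), with technical replicate 1 (0.070) or 2 alone (0.054), with a trended, robust variance (0.0501) or with unpaired channels (1.00). The others gave log2 ratios of -0.26 (AT3G01890, adjusted p = 0.10), -0.23 (AT5G17510, adjusted p = 0.063) and 0.11 (AT1G76380, adjusted p = 0.32). AT5G17510 had 0.92 on Cy5-wounded and -1.39 on Cy3-wounded arrays, and AT1G76380 had -0.48 and 0.70. The median of the 4 was -0.25, against 0.00 over all tested genes and spots.

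Other Snf2-type proteins, which include the ISWI-type ATPase gene CHR17 and the gene of the INO80 remodeller, had 4 tested genes of 27 listed, with 0 higher and 0 lower. CHR17 had the smallest p of these, with a log2 ratio of 0.24 ± 0.06 (SD, n = 3, limma adjusted p = 0.060) and 0.30, 0.24 and 0.18 in the 3 replicates. It was 0.67 on Cy5-wounded and -0.19 on Cy3-wounded arrays, so that it turned with the dye as CHR23 did. INO80 had 0.06 ± 0.05 (SD, n = 3, limma adjusted p = 0.53), RAD5 0.12 (adjusted p = 0.26) and CHR24 0.14 (adjusted p = 0.49). CHR24, whose spot was dim, had 2.88 on Cy5-wounded and -2.60 on Cy3-wounded arrays. All 4 log2 ratios of this list were above 0, with a median of 0.13, where 10212 of the 20072 genes and spots were above 0. This held on Cy5-wounded arrays too, with 0.24 for RAD5 and 0.05 for INO80. On Cy3-wounded arrays only INO80 (0.07) was above 0, and RAD5 had -0.004.

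Partners of the SWR1 and INO80 complexes and histone H2A.Z had 3 tested genes of 13 listed, with 0 higher and 1 lower. AT2G47210, which has no symbol in the gene table, fell with a log2 ratio of -0.41 ± 0.04 (SD, n = 3, limma adjusted p = 0.021), and was -0.45, -0.38 and -0.40 in the 3 replicates. Its mean signal was 580 in wounded leaves, against 773 in not wounded leaves. The log2 ratio of AT2G47210 was -0.21 on Cy5-wounded and -0.61 on Cy3-wounded arrays. It was not called once replicate 2 was left out (limma adjusted p = 0.12) or replicate 3 (0.095), or the array with the differing label (0.084). AT2G47210 was called under 13 of 19 alternatives, with adjusted p of 5.9e-05 to 1.00. It was also not called on Cy5-wounded arrays alone (0.33), with technical replicate 2 alone (0.063) or with unpaired channels (1.00). SWC2, named after a subunit of SWR1, had 0.10 (adjusted p = 0.36) and AT5G67630 had 0.07 (adjusted p = 0.63). Both turned with the dye, SWC2 with 0.93 on Cy5-wounded and -0.72 on Cy3-wounded arrays, and AT5G67630 with 0.23 and -0.09. HDA7, given next, had 0.64 and -0.54, while HDA15 had -0.19 and -0.34. Of 29 listed histone acetyltransferases and deacetylases 2 were tested, the deacetylase genes HDA15 with -0.26 (adjusted p = 0.065) and HDA7 with 0.05 (adjusted p = 0.65), and of 15 Polycomb genes 0 had a named spot. Over the 13 tested genes of these lists 0 were higher and 2 lower (15.4%), where 7.24% of all genes and spots were lower, and the median log2 ratio was 0.06. The difference between these shares was not tested.

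**Figure D4:**
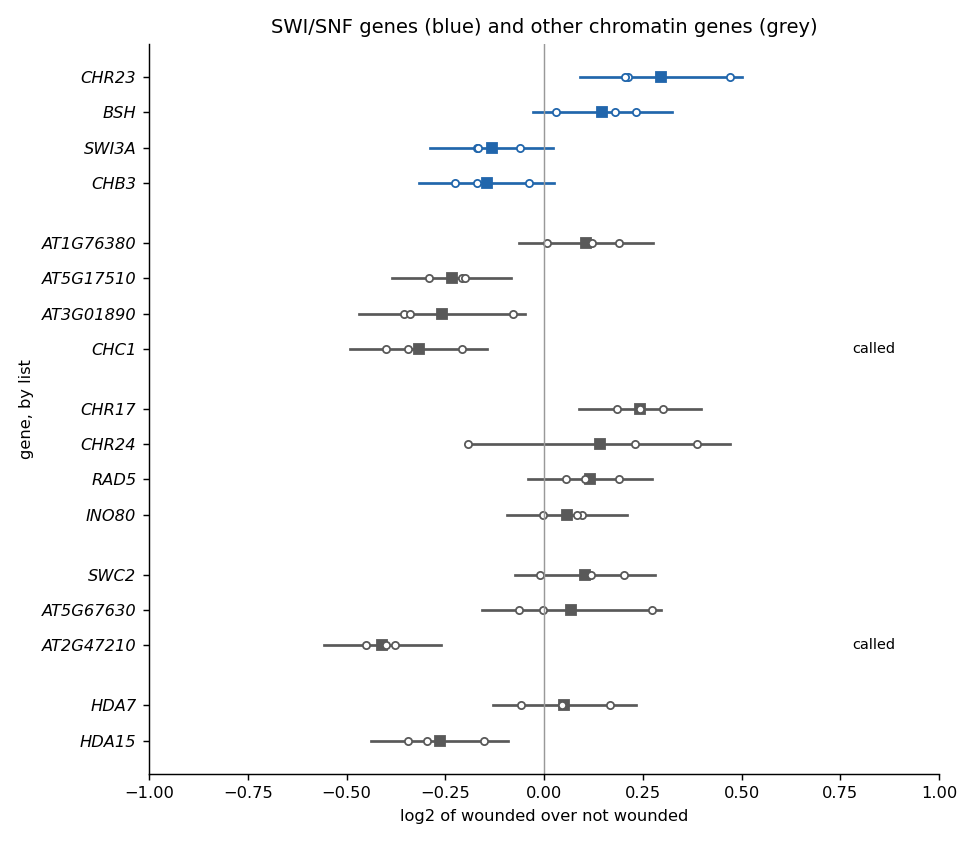
Log2 ratio of wounded over not wounded for the 4 SWI/SNF genes (blue) and 13 other chromatin genes (grey, in blocks by list: further SWI/SNF genes, other Snf2-type proteins, SWR1 and INO80 partners, deacetylases). Open circles are the 3 biological replicates, squares their mean and lines the 95% confidence interval from limma. The genes marked as called, CHC1 (-0.32) and AT2G47210 (-0.41), are the lowest, and CHR23 (0.30) is the highest.

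For scale, ORA47 (ERF#018), a transcription factor gene known to respond to wounding, had a log2 ratio of 3.54 ± 0.73 on the same arrays (SD, n = 3, limma adjusted p = 0.012). The RT-qPCR control genes of the study, RPL14 (AT4G27090) and the TIP41-like gene AT4G34270, had 0.21 ± 0.06 and 0.18 ± 0.11 (SD, n = 3, limma adjusted p = 0.084 and 0.15), which is larger in size than the ratios of BSH, SWI3A and CHB3. The named genes whose log2 ratios were closest to a SWI/SNF gene over the 12 arrays were found by the root mean square distance. The dye effect was not removed from these ratios, so closeness takes in a like dye effect as well as a like response to wounding. They were AT5G66950 for CHR23 (0.18), AT1G70190 for BSH (0.05), AT1G09650 for SWI3A (0.12) and AT3G15460 for CHB3 (0.12), where the median distance to all named genes was 0.45 to 0.67. Next came AT5G23690 and AT5G48340 for CHR23, AT3G22260 and AT2G18630 for BSH, AT3G61770 and AT1G07470 for SWI3A, and AT5G52820 and AT3G04500 for CHB3. The SWI/SNF genes themselves lay 0.35 to 0.68 apart by this measure, so none was among the closest genes of another.

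The leaf identity of the samples was checked on markers of photosynthetic cells. Of 10 listed genes 3 had a spot, and RCA, the Rubisco activase gene, had a mean signal of 140833 in wounded leaves, against 190250 in not wounded leaves. RCA and PRK, a Calvin cycle kinase gene, fell with log2 ratios of -0.45 and -0.65 (limma adjusted p = 0.041 and 0.013), while LHCB4.1, a light-harvesting protein gene, had -0.03 (adjusted p = 0.86). LHCB4.1 turned with the dye, with -0.73 on Cy5-wounded and 0.66 on Cy3-wounded arrays. The part of these marker changes in the ratios of the SWI/SNF genes was not tested. Of 6 root markers 0 had a named spot, and of 5 flower and pollen markers 1 did, AT5G45880, with a mean signal of 613 in wounded leaves and 631 in not wounded leaves. Between biological replicates the ratios of all tested genes and spots correlated at r = 0.54 to 0.74, across genes, which are not independent replicates. One array of biological replicate 3 names its wounded channel with another number than its title does, and was kept under its title. Without that array, the log2 ratios were 0.37 for CHR23, 0.15 for BSH, -0.12 for SWI3A and -0.09 for CHB3. None of the 4 passed, where 1.27% of all genes and spots did. That fit leaves the dyes of replicate 3 unbalanced.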

How the data were processed

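Arrays were scanned and read by the authors with Agilent Feature Extraction 8.1 at default settings, and the deposited intensity of each spot and dye is background-subtracted and scaled between dyes on housekeeping genes. These intensities were used without further normalization. The authors also deposited log10 values of the red over green ratio, ranging from -2 to 2 and 0 at dim spots, which served as the filter and as an alternative. Dyes were assigned from the channel labels. A spot was left out if any of the 6 pairs of dye-swapped arrays had a deposited ratio of 0 on both. Ratios were averaged over the 4 arrays of a replicate and over the spots of a gene, and tested with limma 3.58.1 in R 4.3.3 (lmFit, eBayes, n = 3, two-sided). Gene names came from the platform annotation, updated through gene identifiers (9317 of 9335 spots with 1 gene matched). Signal and the number of replicates limit precision. The fit was tested on simulated data. Members, gene lists and tests were chosen with earlier results of these data known. Named are all members, the called genes and up to 4 with the smallest p in each list, control genes for scale, and the 3 named genes closest to each member. No set test was run. The unit of replication is a wounded pool of plants with its not wounded pool, so p-values rest on 3 such pairs. The spread of a gene between them was moderated by eBayes with that of all genes and spots. Samples were paired by hybridisation on the same array. Alternatives covered normalization, filters, dye orientation, technical and biological replicates, pairing and the variance model. The files carry no column for control spots, slide or scan, so none of these entered the fit.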

Additional observations from a re-analysis of the deposited data

How the results depend on the processing

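BSH and SWI3A kept their direction under all 19 alternatives, and CHB3 and CHR23 under all but 1 each. CHR23 is left out with the dimmest 25% of spots. Alternatives that changed only the spot filter, the pairing, the variance model or the averaging of spots could not change a log2 ratio of these genes. The same holds for the 12 arrays fitted singly, so under all of these the direction was fixed in advance. The log2 ratio of CHB3 was 0.10 with the wounded sample in Cy5 only, and that of CHR23 was -0.14 with it in Cy3 only. CHR23 also passed with the wounded sample in Cy5 only (0.73) and with technical replicate 1 only (0.34). All 4 passed with the 12 arrays fitted singly, at unchanged log2 ratios of 0.30 (CHR23), 0.15 (BSH), -0.13 (SWI3A) and -0.15 (CHB3). Of the 17 tested chromatin genes, 2 were called, where 14.5% of all genes and spots were called. For each alternative the share of all genes and spots called stands in brackets. The number was 1 with no filter on dim spots (8.97%) and with a trended, robust variance (11.3%), and 4 without the dimmest 25% of spots (20.9%). It was 6 with the wounded sample in Cy5 only (29.8%), 7 with it in Cy3 only (35.3%) and 9 with the 12 arrays singly (45.1%). It was 0 with technical replicate 2 only (10.1%), without the array of the differing label (1.27%), without replicate 2 (0.947%) and without replicate 3 (2.76%). It was 3 without replicate 1 (15.8%). Of all genes and spots, 2909 were called. This number was 5982 with the wounded sample in Cy5 only, 7081 with it in Cy3 only, 255 without the array of the differing label, and 9057 with the 12 arrays singly. With a replicate left out it was 190 (without replicate 2) to 3162 (without replicate 1), and 554 without replicate 3. With unpaired channels and no replicate block, 27 of all genes and spots and 0 of the chromatin genes were called. The cause of these differences was not tested. Single-orientation fits keep the dye effect by construction, and a fit without 1 array leaves the dyes unbalanced.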

Other observations

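Several of the chromatin genes were read by dim spots. The signal of CHR23 lay under the dim limit on 3 of 12 arrays in wounded and on 9 in not wounded leaves. That of CHR24 was under it on 7 of 12 arrays in wounded and on 6 in not wounded leaves. AT5G17510 had the same counts as CHR24. RAD5 was under it on 6 arrays in wounded and on 8 in not wounded leaves, and HDA7 on 11 and on 9. CHR42 and CHR40, further Snf2-type genes, were not tested, as their spots did not pass the filter on deposited ratios of 0. Their mean signals were 79.5 and 51.9 in wounded leaves and 75.9 and 48.8 in not wounded leaves. HDA7 passed that filter with mean signals of 64.4 and 65.1 in wounded and not wounded leaves. The dim limit in this paragraph is taken over both dyes of an array and lay between 81 and 124.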
